A study of Mus musculus with 49 samples.

Results

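The CA1 pyramidal layer and the granule layer of dentate gyrus (DG) were compared in mice that carried neither transgene (DN, double negative). The 12 arrays of the comparison, of 49 in the study, were those labelled as CA1 or dentate gyrus of double-negative animals, with 6 arrays of each layer from the same 6 mice, of 17 in all. The mice were female and 6.1 months old, and were littermates from a cross of a TRE-driven human tau (P301L) line on FVB/N with a Camk2a promoter-driven tTA line on another inbred strain, so that they shared a mixed background without either allele. Other groups are used for reference: tTA mice, which carried the transactivator alone (5 mice), and rTg4510 mice, which carried tTA and the tau responder (5 CA1 and 6 DG arrays), all female and of the same age. Cells were taken by laser capture from cresyl violet stained sections, RNA was amplified as a whole transcriptome, and each capture was hybridized to 1 HT-MG-430A array, which reads transcripts with sets of short probes near the 3-prime end. All levels below are log2 values, differences are CA1 minus DG, and a difference of 1 is a doubling.

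CA1 pyramidal neurons and dentate granule cells are both excitatory neurons of the hippocampal circuit, but they hold different places in it. Granule cells receive the perforant path from entorhinal cortex and send mossy fibers to CA3, fire sparsely, and are still added in the adult. CA1 pyramidal cells receive the Schaffer collaterals from CA3 and form the main output of the hippocampus. A captured layer also holds interneurons, glia and vessels, and in such bulk samples fewer cells of a type cannot be told apart from less RNA per cell.

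The 2 layers were clearly separated on the arrays. The first principal component held 56.1% of the variance over the 12 arrays and put all CA1 arrays on one side of all DG arrays. Arrays correlated with others of their own layer at a median r of 0.991 to 0.994 and with those of the other layer at 0.974 to 0.981 over probe sets. No pair of arrays held identical values. The ratio of 3-prime to 5-prime signal of Actb, which rises where RNA is less intact, was −0.37 ± 0.23 in CA1 and −0.30 ± 0.15 in DG on the log2 scale (SD, n = 6), and that of Gapdh was 2.98 ± 0.29 and 3.32 ± 0.32. Gapdh was lower in CA1 in 5 of 6 mice, a difference of −0.34 (exact paired permutation test, two-sided, p = 0.0938, adjusted over both genes 0.188).

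CA1 and DG differed in about 1 probe set in 5. Of 22626 probe sets tested, 4938 (21.8%) were called at an adjusted p below 0.05 in a limma model with the mouse as a block. Of these, 2537 (11.2%) were higher in CA1 and 2401 (10.6%) in DG (2625 and 2290 after each array was centred on its median), and 4271 had the same sign in all 6 mice. Most differences were small. Only 825 (3.65%) were at least 2-fold, 410 (1.81%) higher in CA1 and 415 (1.83%) in DG, and 95 and 82 were at least 4-fold, 29 and 17 at least 8-fold. With the brightest probe set for each of 11807 named genes, 1388 genes (11.8%) were called higher in CA1 and 1329 (11.3%) in DG, so that 23.0% were called in either direction. The median difference over these genes was −0.01. A layer is named dim for a gene where its mean was under 5.02, the median over probe sets, since RMA tends to understate such differences. Beside the genes marked so where they are described, Akr1c18, Arc, Chrm3, Htr5b, Hunk, Kcnq5, Nr4a1, Rgs14, Runx1t1, Ryr3, Sstr4 and Vip were dim in DG, Cxcl12, Npy1r, Ntng1, Ogn, Pde7b, Pdyn, Plekha2, Prox1, Sstr2, St3gal1 and Stxbp6 in CA1, and C4b, Cx3cr1, Dcn, Pdzrn3 and Rspo2 in both. Values are those of the brightest probe set, and among genes called by it, another probe set was not called for Cacnb1, Efnb2, Foxp1, Gja1, Id2, Npy1r, Rab3c, Rgs4, Sox9 and Tgfa, nor for those named with it below. For C1ql3, Cacng5, Cd24a, Dpysl3, Il16, Necab2 and Stard5, other probe sets and other ways of processing were not looked at singly.

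**Figure D1:**
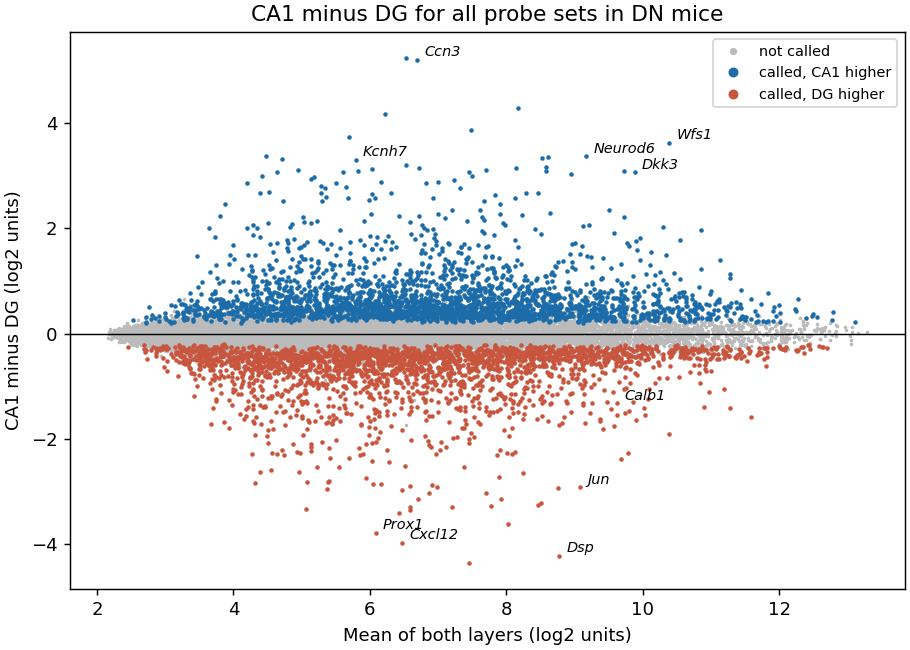
Each point is 1 of 22626 probe sets, with its mean over both layers on the x axis and CA1 minus DG on the y axis, both in log2 units, over 6 DN mice; blue and red points were called at an adjusted p below 0.05, gray points were not. Called probe sets lie at all levels and on both sides of 0, and among the labelled genes Ccn3 (5.19) and Dsp (−4.21) lie farthest from 0.

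Among the 15 genes with the largest excess in CA1, the defining markers of CA1 pyramidal cells stood beside a kinase, a channel and receptors for acetylcholine and serotonin. Ccn3, a secreted matricellular protein, ran from 9.04 to 9.75 in CA1 (median 9.12) and from 3.61 to 4.43 in DG (median 4.25). No array of one layer reached the range of the other, and the difference was 5.19 (SE 0.17, adjusted p = 3.7e-07). Wfs1, an endoplasmic reticulum membrane protein, ran from 12.15 to 12.30 in CA1 (median 12.18) and from 8.30 to 9.07 in DG (median 8.48). It was nearly constant over the CA1 arrays, with a difference of 3.62 (SE 0.10). Lefty1, a secreted inhibitor of Nodal signaling, ran from 6.19 to 6.69 in CA1 (median 6.30) and from 2.98 to 3.15 in DG (median 3.06), a difference of 3.31 (SE 0.09). Kcnh7, a potassium channel of the ERG family, ran from 7.36 to 7.56 in CA1 (median 7.43) and from 3.94 to 4.28 in DG (median 4.12). Its CA1 arrays lay close together, and its difference was 3.30 (SE 0.07, adjusted p = 1.2e-07). Ccn3, Lefty1 and Kcnh7 were dim in DG.

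Neurod6, a basic helix-loop-helix factor of pyramidal neurons, was less even in DG. It ran from 10.60 to 11.00 in CA1 (median 10.88) and from 6.61 to 8.98 in DG (median 7.21), a difference of 3.37 (SE 0.29, adjusted p = 5.0e-05). Its highest DG value was that of mouse4806, and the layers did not overlap. Dkk3, a secreted protein of the dickkopf family, behaved alike in that mouse: it ran from 11.26 to 11.59 in CA1 (median 11.40) and from 7.96 to 9.05 in DG (median 8.25), a difference of 3.06 (SE 0.16). The other genes of this group were Akr1c18, which encodes a 20-alpha-hydroxysteroid dehydrogenase (3.36, SE 0.18), Pde1a, a calmodulin-dependent phosphodiesterase (3.34, SE 0.15), the corepressor Runx1t1 (3.21, SE 0.12), the POU factor Pou3f1 (3.15, SE 0.12), the kinase Hunk (3.12, SE 0.09), the muscarinic receptor Chrm3 (3.11, SE 0.11), the EF-hand protein Gca (3.11, SE 0.11), the IGF-binding protein Igfbp4 (3.09, SE 0.11) and the serotonin receptor Htr5b (3.08, SE 0.12). Second probe sets of Gca (0.16, adjusted p = 0.39) and Pou3f1 (0.24, adjusted p = 0.057) were dim in both layers and were not called. In all 15 the lowest CA1 array lay above the highest DG array, by 1.62 in Neurod6 to 4.61 in Ccn3.

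Among the 15 genes with the largest excess in DG were the granule cell factor Prox1, the desmosomal protein Dsp, channels, adhesion and guidance molecules and the transcription factor subunit Jun. Dsp, which encodes desmoplakin, ran from 10.62 to 11.12 in DG (median 10.87) and from 3.83 to 8.35 in CA1 (median 7.11). The DG arrays were close together while the CA1 arrays spread over more than 4 log2 units, and the difference was −4.21 (SE 0.49, adjusted p = 2.7e-04). Prox1, a homeobox factor that granule cells need to keep their identity, ran from 7.33 to 8.26 in DG (median 8.08) and from 3.24 to 5.13 in CA1 (median 4.37), a difference of −3.78 (SE 0.31). Cxcl12, a chemokine, ran from 8.33 to 8.63 in DG (median 8.44) and from 3.52 to 5.52 in CA1 (median 4.46), a difference of −3.97 (SE 0.24, adjusted p = 5.5e-06). A second probe set of Cxcl12 did not show this, with 6.19 in CA1 and 5.98 in DG (adjusted p = 0.30).

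Kcnc4, a fast potassium channel, ran from 9.61 to 10.04 in DG (median 9.80) and from 5.08 to 7.21 in CA1 (median 6.33), a difference of −3.61 (SE 0.24). Stxbp6, which binds SNARE proteins, ran from 8.01 to 8.54 in DG (median 8.26) and from 3.46 to 5.62 in CA1 (median 5.10), a difference of −3.35 (SE 0.28). In both genes all DG arrays lay above all CA1 arrays. The rest were the small proteoglycan Ogn (−3.33, SE 0.16), the phosphoinositide-binding Plekha2 (−3.29, SE 0.14), the matrix protein Npnt (−3.28, SE 0.27), Rprm, an inhibitor of the cell cycle (−3.27, SE 0.19), the semaphorin Sema5a (−3.25, SE 0.26), the sodium bicarbonate cotransporter Slc4a4 (−3.21, SE 0.28), the cation channel Trpc6 (−3.14, SE 0.18), Kctd4 (−3.02, SE 0.12), the membrane-bound netrin Ntng1 (−2.96, SE 0.33) and Jun (−2.91, SE 0.20). A second probe set of Slc4a4 was dim in both layers and was not called (0.02, adjusted p = 0.89). In all 15 the lowest DG array lay above the highest CA1 array, by 1.60 in Ntng1 to 2.81 in Cxcl12.

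**Figure D2:**
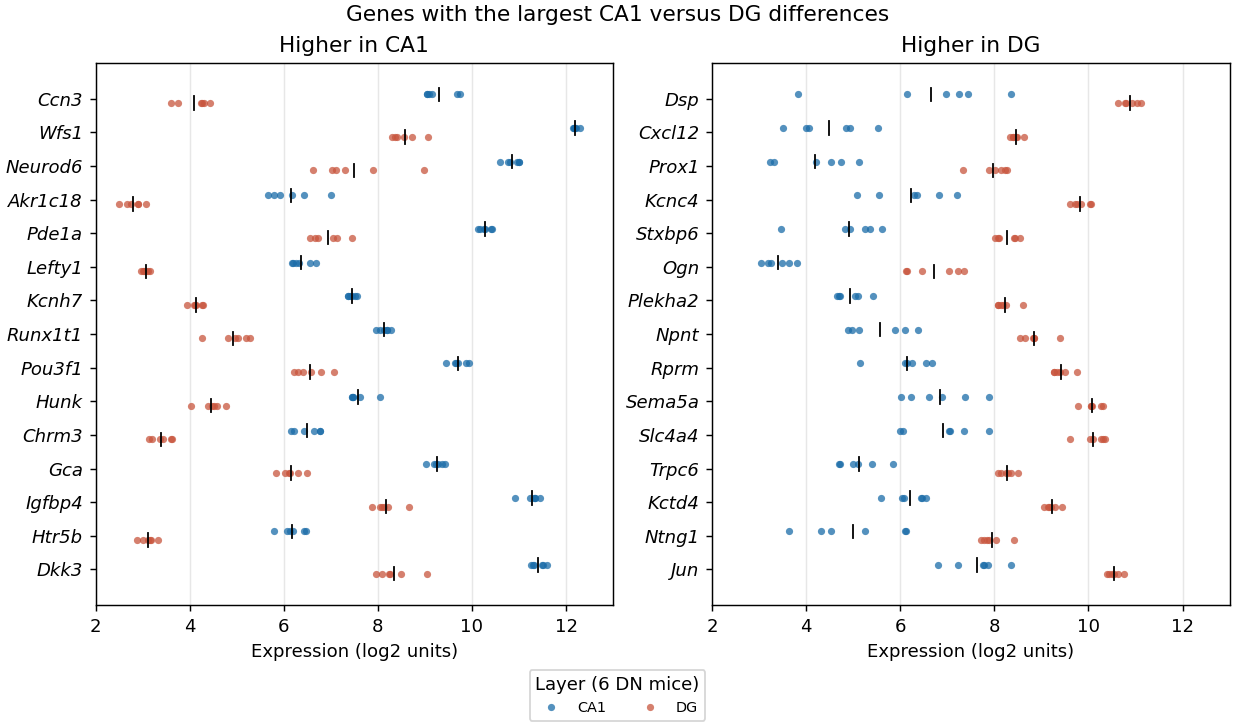
Points are single arrays of CA1 (blue) and DG (red) from 6 DN mice, in log2 units, for the 15 genes with the largest difference in each direction; black bars are means. The layers are apart in all 30 genes, and the CA1 points of granule cell genes such as Dsp (3.83 to 8.35) are spread more widely than their DG points.

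Marker lists were set beside the labels of the captures. The lists were chosen with earlier results of these data known, so they are not an independent check of the labels. Of the 5 measured markers of CA1 pyramidal cells, 4 were called higher in CA1 (Ccn3, Wfs1, Lefty1, Pou3f1) and Dcn was at 4.05 and 3.92 (adjusted p = 0.50). All 10 measured markers of granule cells were called higher in DG, with a median of −2.36, although the call on Pdzrn3 (−0.54, SE 0.17) was lost without mouse4825, mouse4866, mouse4883 or mouse4886. Of 5 CA3 markers, 1 was called: Bok, a BCL2 family member, at 6.79 in CA1 and 7.55 in DG. The CA3 marker Rspo2 was at 4.433 in CA1 and 3.997 in DG, against 7.45 in the CA3 layer of the same mice.

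Granule cell markers were measured in the CA1 captures at levels that varied by mouse. The mean of the 10 granule cell markers was 7.996 to 8.375 over the DG arrays and 5.25 to 6.40 over the CA1 arrays. In CA3 captures of 5 of these mice it was 4.32 to 5.33. In each of these 5 mice the CA1 value lay above the CA3 value. The gap was uneven over the markers. Calb1 was at 8.96 in CA1 and 4.49 in CA3 and C1ql3 at 9.08 and 6.40. Dsp was at 6.66 and 5.12 and Prox1 at 4.19 and 3.07. Il16 alone went the other way, at 5.13 and 6.88. Among CA1 arrays the mean of these markers was lowest in mouse4866 (5.25) and highest in mouse4806 (6.40), whose DG array had the lowest value of its layer (7.996). The mean of the 5 CA1 markers was 8.20 to 8.49 in CA1 and 5.06 to 5.53 in DG, where mouse4806 was highest, and 4.65 to 5.13 in CA3.

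The same mouse stood out over the wider set. Of 52 genes that were called at least 4-fold higher in DG, 35 had their highest CA1 value in mouse4806. Of 63 genes at least 4-fold higher in CA1, 26 had their highest DG value in that mouse. How often the arrays of this mouse were highest over all genes was not counted, so no background share stands beside these counts. The SD over mice was larger in the layer where the gene was low for 41 of the 52 and for 41 of the 63. The median SD of the 52 genes was 0.44 in CA1 and 0.26 in DG. The part of these transcripts in the differences was not tested. Without mouse4806 the count of called probe sets was 4459, of which 4143 were called with all 6 mice, with 0 called in the opposite direction.

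**Figure D3:**
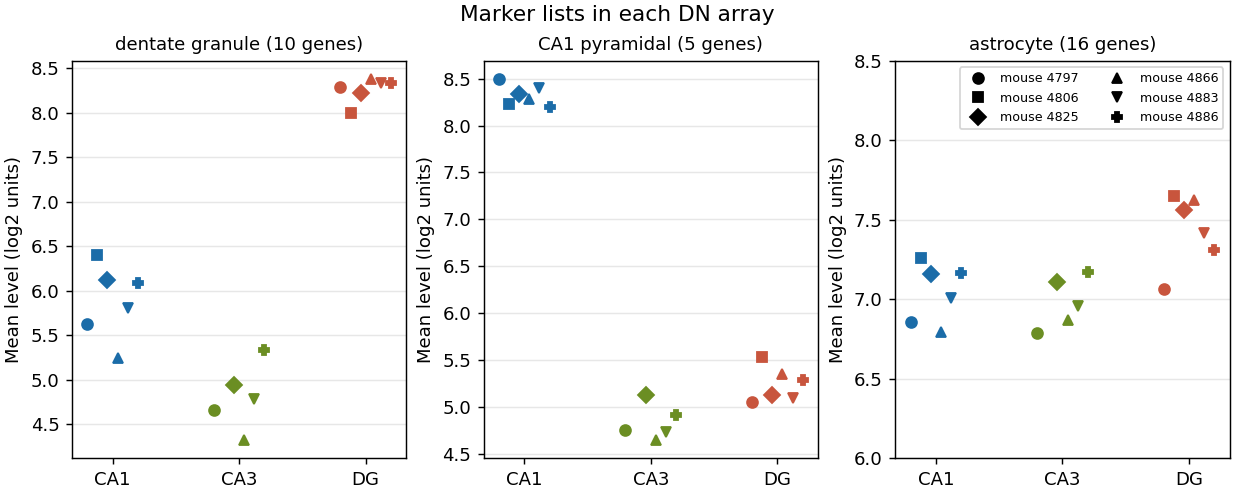
Each point is the mean log2 level of a marker list on 1 array, by layer (CA1, CA3, DG) and with 1 symbol for each DN mouse; mouse4806 has no CA3 array. The mean of the granule cell markers is lowest in CA3 (4.32 to 5.33), intermediate in CA1 (5.25 to 6.40) and highest in DG (7.996 to 8.375). Single markers differ in their gap between CA1 and CA3, which is wide for Calb1 and reversed for Il16. The mean of the CA1 markers is highest in CA1 (8.20 to 8.49) and lower in DG (5.06 to 5.53) and CA3 (4.65 to 5.13).

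Markers of glia were called in part. Of 16 astrocyte genes, 4 (25%, beside 23.0% of all genes) were called higher in DG and none in CA1: Slc4a4, the phosphatase Ptprz1 (−1.56, SE 0.10), the factor Sox9 (−0.65, SE 0.15) and the connexin Gja1 (−0.38). The defining markers Gfap (7.41 in CA1, 7.77 in DG) and Aqp4 (7.74 and 7.99) were not called. The mean over the list ran from 6.79 to 7.26 in CA1 and from 7.06 to 7.65 in DG and was higher in DG in 6 of 6 mice. The median difference of its genes was smaller, at −0.10, and only Slc4a4 and Ptprz1 were at least 2-fold higher in DG. The part of astrocytes in the DG differences was not tested. Of 15 oligodendrocyte genes 1 (6.67%) was called, higher in DG, with a list mean of 5.78 to 6.40 in CA1 and 5.97 to 6.45 in DG. Of 22 microglial genes 2 (9.09%) were called, higher in CA1, with list means of 4.79 to 5.03 and 4.63 to 5.12, and Cx3cr1 was at 4.75 in both layers. Among vessel markers, 3 of 19 endothelial and mural genes (15.8%) were called, all higher in CA1, and none reached 2-fold. Their list mean ran from 5.43 to 5.69 in CA1 and from 5.26 to 5.48 in DG. It was higher in CA1 in 6 of 6 mice, with a median difference of 0.12 over the genes. The part of vessels in the CA1 differences was not tested.

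Of 21 interneuron markers measured, 8 were called higher in CA1 and 5 in DG (61.9%, beside 23.0% of all genes, median 0.19). The list mean was higher in CA1 in 5 of 6 mice. The vesicular GABA transporter Slc32a1 was at 8.80 in CA1 and 8.76 in DG, and the GABA-synthesizing enzyme Gad2 at 8.45 and 8.64, neither called. The other such enzyme, Gad1, was higher in DG (−0.68, SE 0.10). Higher in CA1 were the peptides Vip (2.12, SE 0.23) and Cck, whose values are given below, the parvalbumin gene Pvalb (1.09, SE 0.24) and Sst, which encodes somatostatin (0.55, SE 0.11). On the whole list 3 genes were at least 2-fold higher in CA1 and 2 in DG. The call on Sst was lost without the mouse as a block, in the model of all 49 arrays and in the least significant difference tests, and that on Pvalb in such a test on anti-log values. Higher in DG were Tac1, a precursor of substance P (−1.22, SE 0.14), Npy (−1.14, SE 0.15) and Reln, which encodes reelin (−0.94, SE 0.17).

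The stretches of 100 bases before the annotated start are shown for 4 of the 30 leading genes, a pair from each layer. Igfbp4 and Prox1 were chosen because TATAAA lies in these bases, and Wfs1 and Jun stand beside them without it. By the first listed promoter of each gene this was so for no other leading gene. Further promoters, such as the second of 2 listed for Prox1, were not looked at for these 100 bases. RefSeq promoters of build GRCm38.p6 covered 250 bases before to 50 after a start, and were listed for 9 of the 15 genes highest in CA1 and 13 of the 15 highest in DG. Capitals mark the letters TATAAA or their reverse complement, and each line is written 5′ to 3′ on the strand of the gene.
Wfs1, chr5:36988983-36989082, minus strand: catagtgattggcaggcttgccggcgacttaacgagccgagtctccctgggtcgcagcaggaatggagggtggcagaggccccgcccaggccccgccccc
Igfbp4, chr11:99041144-99041243, plus strand: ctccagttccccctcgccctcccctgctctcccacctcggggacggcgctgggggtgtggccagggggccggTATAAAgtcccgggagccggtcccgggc
Prox1, chr1:190170828-190170927, minus strand: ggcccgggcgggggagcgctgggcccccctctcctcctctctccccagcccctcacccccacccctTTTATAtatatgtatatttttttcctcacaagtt
Jun, chr4:95052223-95052322, minus strand: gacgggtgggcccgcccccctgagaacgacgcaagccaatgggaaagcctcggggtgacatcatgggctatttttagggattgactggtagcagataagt

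Over the full promoters and on both strands, TATAAA was found in 2 of the 9 CA1 genes, 2 of the 13 DG genes and 15.7% of all 27025 genes with a listed promoter. The E-box letters CAGATG, of the kind bound by NeuroD factors, were found in 3 of 9, 1 of 13 and 19.2%. The E-box CAGCTG was found in 1 of 9, 1 of 13 and 18.3%, and the cyclic AMP response element TGACGTCA in 0 of 9, 0 of 13 and 2.03%. These counts are descriptions of letters in a short window.

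**Figure D4:**
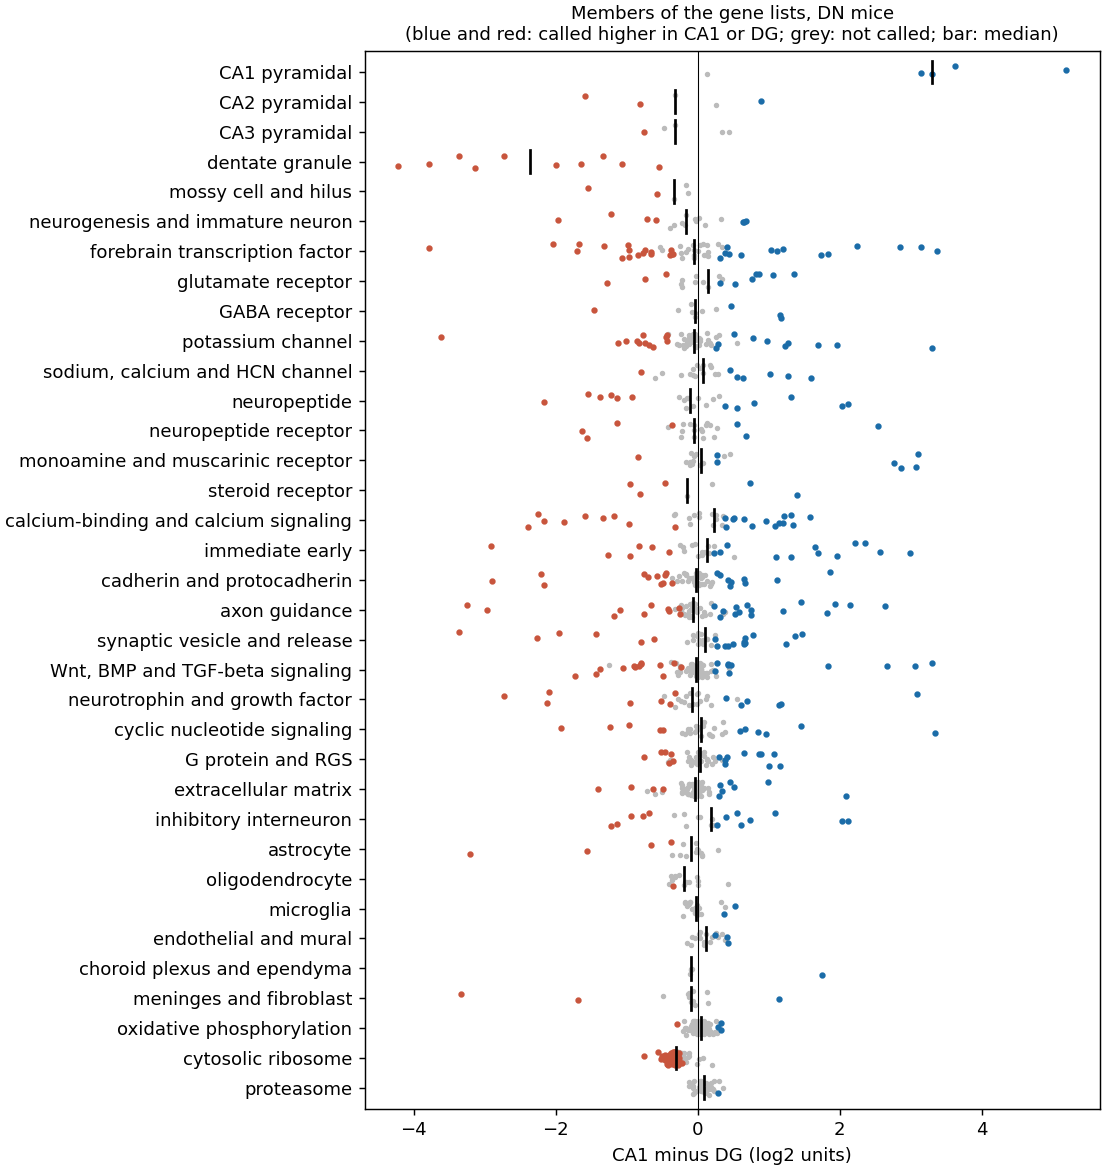
Each point is 1 measured gene of a list, placed at its CA1 minus DG difference in log2 units over 6 DN mice; blue and red genes were called higher in CA1 or DG, gray genes were not, and black bars are list medians. Most lists have called members on both sides of 0, while the CA1 and granule cell lists lie on 1 side each and the ribosomal genes sit in a narrow band below 0 (median −0.31).

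Transcription factors of the forebrain differed in both directions. Of 54 measured, 14 were higher in CA1 and 18 in DG (59.3%, against 23.0% of all genes), with a median of −0.05. Higher in CA1 after Neurod6 and Pou3f1 were the homeobox factor Meis2 (2.86, SE 0.15), the forkhead factor Foxp1 (2.25, SE 0.11), the LIM-only protein Lmo1 (1.84, SE 0.17) and the zinc finger factor Fezf2 (1.73, SE 0.19). Higher in DG after Prox1 were the GATA cofactor Zfpm2 (−2.04, SE 0.13), Mycl of the Myc family (−1.69, SE 0.14), Mef2c (−1.67, SE 0.13), the inhibitor of bHLH factors Id2 (−1.32, SE 0.10) and the corepressor Tle4 (−1.06, SE 0.07). Meis2, Fezf2 and Mycl were dim in the lower layer.

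Genes of immature neurons and progenitors were divided. Of 17 measured, 4 were higher in DG and 3 in CA1 (41.2%, beside 23.0% of all genes), 10 were not called, and the median was −0.17. Sox11, a factor of newborn neurons, was at 6.55 in CA1 and 8.51 in DG (−1.96, SE 0.18). Hopx, which marks adult neural stem cells of the dentate gyrus, was also higher there (−1.22, SE 0.15), as were the dim proliferation marker Mki67 (−0.71, SE 0.12) and the microtubule regulator Stmn1 (−0.59, SE 0.07). The 3 higher in CA1 were the neuronal tubulin Tubb3 (0.69, SE 0.16), Dpysl3 (0.65, SE 0.18, dim in DG) and Cd24a (0.65, SE 0.09). Without mouse4886, 7 genes of this list were called higher in DG.

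Of 19 ionotropic glutamate receptor and partner genes measured, 7 were higher in CA1 and 3 in DG (52.6%, beside 23.0% of all genes). Their median was 0.14. The NMDA receptor subunit Grin2a ran from 7.75 to 8.41 in CA1 (median 8.22) and from 5.84 to 7.47 in DG (median 6.86). Its layers did not overlap, and the difference was 1.35 (SE 0.20, adjusted p = 0.0013). The subunit Grin2b was higher by 0.82 (SE 0.19) in 5 of 6 mice, but its second probe set, dim in both layers, was not called. The AMPA receptor subunits Gria3 (0.76, SE 0.12) and Gria1 (0.52, SE 0.10) and the auxiliary subunits Cacng3 (1.06, SE 0.11) and Cnih2 (0.87) were also higher in CA1. On the side of DG were the kainate receptor partner Neto1 (−1.28, SE 0.11) and the kainate receptor subunit Grik2 (−0.74, SE 0.13).

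Of 11 GABA receptor genes, 3 were higher in CA1 and 1 in DG (36.4%, beside 23.0% of all genes), with a median of −0.03. Gabrd, the delta subunit of extrasynaptic receptors that carry tonic inhibition, ran from 6.02 to 7.04 in CA1 (median 6.67) and from 7.47 to 8.44 in DG (median 8.20). All DG arrays were above all CA1 arrays, a difference of −1.46 (SE 0.15). The subunits Gabrg3 (1.17, SE 0.16) and Gabra3 (1.17, SE 0.18, dim) were higher in CA1.

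Potassium channels were divided between the layers. Of 60 genes, 10 were higher in CA1 and 12 in DG (36.7%, beside 23.0% of all genes, median −0.05). Beside Kcnh7, CA1 had more of the M-type channel Kcnq5 (1.97, SE 0.10), the beta subunit Kcnab1 (1.69, SE 0.13), the mechanosensitive leak channel Kcnk2 (1.27, SE 0.09) and the calcium-activated channel Kcnn2 (1.23, SE 0.08). Beside Kcnc4, DG had more of Kcnip3, which binds Kv4 channels and calcium (−1.12, SE 0.11), the leak channel Kcnk1 (−1.01, SE 0.08) and the delayed rectifier Kcna1 (−0.82, SE 0.15). Of 22 sodium, calcium and HCN channel genes, 7 were called (31.8%, beside 23.0% of all genes). Higher in CA1 were 6, among them the calcium channel subunits Cacnb1 (1.60, SE 0.11) and Cacna2d3 (1.02, SE 0.09) and the sodium channel beta subunit Scn3b (1.27, SE 0.07). The T-type calcium channel Cacna1h was the 1 called higher in DG (−0.79, SE 0.14), and without mouse4806 or mouse4886 there were 2.

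Of 20 monoamine and muscarinic receptor genes, 6 were higher in CA1 and 1 in DG (35.0%, beside 23.0% of all genes). Their median was 0.04, and 4 were at least 2-fold higher in CA1. The inhibitory serotonin receptor Htr1a ran from 7.97 to 8.44 in CA1 (median 8.31) and from 4.66 to 5.94 in DG (median 5.37), a difference of 2.86 (SE 0.11, adjusted p = 6.1e-07). Htr1b, another inhibitory serotonin receptor, differed by 2.76 (SE 0.09) and was dim in DG. The excitatory Htr4 was higher in DG (−0.84, SE 0.10) but was dim in both layers, at 3.13 and 3.97. The muscarinic receptor Chrm1 was at 6.83 and 6.37 and was not called (adjusted p = 0.061), although it was called under 7 alternatives with all mice.

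Neuropeptide genes marked both layers. Of 22 measured, 6 were higher in CA1 and 6 in DG (54.5%, beside 23.0% of all genes, median −0.10). Cck, which encodes cholecystokinin, ran from 9.87 to 10.36 in CA1 (median 10.16) and from 7.85 to 8.59 in DG (median 8.07). The layers were apart, with a difference of 2.03 (SE 0.14), and the secretory chaperone Scg5 was also higher in CA1 (1.31, SE 0.10). Pdyn, the precursor of dynorphin in mossy fibers, ran from 4.01 to 4.80 in CA1 (median 4.27) and from 6.17 to 6.66 in DG (median 6.59), a difference of −2.16 (SE 0.13). The precursors Nmb of neuromedin B (−1.54, SE 0.23) and Grp of gastrin-releasing peptide (−1.38, SE 0.11), both dim in CA1, were higher in DG too.

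Of 23 neuropeptide receptors, 3 were higher in CA1 and 4 in DG (30.4%, beside 23.0% of all genes). The somatostatin receptors went opposite ways: Sstr4 ran from 6.51 to 8.04 in CA1 (median 7.28) and from 4.21 to 5.68 in DG (median 4.73), a difference of 2.54 (SE 0.27), while Sstr2 was lower in CA1 (−1.56, SE 0.14). The neuropeptide Y receptor Npy1r (−1.63, SE 0.14) and the PACAP receptor Adcyap1r1 (−1.14, SE 0.21) were higher in DG, the latter in 5 of 6 mice. Steroid signaling was divided as well. The progesterone receptor Pgr (1.40, SE 0.09, dim in DG) and the glucocorticoid receptor Nr3c1 (0.74, SE 0.07) were higher in CA1, and Fkbp5, a cochaperone of that receptor (−0.96, SE 0.09), and Hsd11b1, which regenerates active glucocorticoid (−0.81, SE 0.11), in DG.

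Calcium signaling genes differed in both directions. Of 36 genes, 14 were higher in CA1 and 9 in DG (63.9%, beside 23.0% of all genes), with a median of 0.23. In CA1 these included kinases and a release channel: the protein kinases Prkcb (1.59, SE 0.07) and Prkca (1.32), the ryanodine receptor Ryr3 (1.34, SE 0.14), the kinase Camk4 (1.21, SE 0.13) and the inositol trisphosphate kinase Itpka (1.20, SE 0.11). In DG they included calcium-binding proteins. Calb1, the calcium buffer calbindin, ran from 10.15 to 10.43 in DG (median 10.29) and from 8.82 to 9.09 in CA1 (median 8.99), a difference of −1.32 (SE 0.08), and the CA3 mean was 4.49. The calcium sensors Ncald (−2.39, SE 0.22) and Hpcal1 (−2.24, SE 0.15) and the kinase subunit Camk2d (−2.16, SE 0.15) differed more. Camk2a, whose promoter drives the tTA allele that DN mice lack, was at 11.87 in CA1 and 11.53 in DG (adjusted p = 0.068).

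Pcp4, a calmodulin-binding protein listed as a marker of CA2, was also higher in DG but uneven in CA1. It ran from 12.29 to 12.55 in DG (median 12.35) and from 8.90 to 11.78 in CA1 (median 10.94). The layers did not overlap, and the difference was −1.59 (SE 0.32, adjusted p = 0.0068). Of 5 CA2 markers measured, 1 was called higher in CA1 and 2 in DG (60%, beside 23.0% of all genes). The 1 in CA1 was Rgs14, which regulates G protein signaling (0.89, SE 0.13). Beside Pcp4, Stard5 was higher in DG (−0.82, SE 0.17, dim in both layers). Necab2 (0.26) and Cacng5 (−0.32) were not called.

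Of 33 cyclic nucleotide genes, 6 were higher in CA1 and 5 in DG (33.3%, beside 23.0% of all genes, median 0.05). Beside Pde1a the phosphodiesterase Pde2a was higher in CA1 (1.46, SE 0.08), while Pde7b (−1.93, SE 0.21) and Pde1b, the close relative of Pde1a (−1.23, SE 0.08), were higher in DG. Of 44 G protein and RGS genes, 10 were higher in CA1 and 6 in DG (36.4%), led by the subunits Gng3 (1.16, SE 0.09) and Gnb5 (1.08, SE 0.10) in CA1 and by the regulator Rgs4 (−0.76, SE 0.10) in DG. Without mouse4825, 3 of the latter list were called higher in DG.

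Of 32 activity-regulated immediate early genes measured, 12 were higher in CA1 and 6 in DG (56.2%, beside 23.0% of all genes, median 0.13). Dusp6, a phosphatase of ERK, ran from 8.62 to 9.20 in CA1 (median 9.02) and from 5.38 to 6.43 in DG (median 6.06), a difference of 2.99 (SE 0.18). Egr1, a zinc finger factor, ran from 10.51 to 10.97 in CA1 (median 10.61) and from 7.97 to 8.66 in DG (median 8.32), a difference of 2.35 (SE 0.08, adjusted p = 4.2e-07). In both genes all CA1 arrays were above all DG arrays. The nuclear receptors Nr4a1 (2.57, SE 0.12) and Nr4a2 (1.70, SE 0.12), the dendritic protein Arc (2.22, SE 0.12) and Egr2 (1.97, SE 0.26) followed.

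A smaller set of the same list was higher in DG. Jun ran from 10.39 to 10.75 in DG (median 10.53) and from 6.80 to 8.35 in CA1 (median 7.78), a difference of −2.91 (SE 0.20). It was followed by the prostaglandin synthase Ptgs2 (−1.26, SE 0.10), the neurotrophin Bdnf (−0.95, SE 0.10) and the activin subunit Inhba (−0.83, SE 0.09). Bdnf ran from 7.17 to 7.91 in DG (median 7.57) and from 6.37 to 6.94 in CA1 (median 6.59), so that its layers were apart although the difference was under 2-fold.

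Of 55 axon guidance genes, 15 were higher in CA1 and 10 in DG (45.5%, beside 23.0% of all genes, median −0.06). The semaphorin Sema3e ran from 9.02 to 9.42 in CA1 (median 9.12) and from 6.38 to 6.82 in DG (median 6.50), a difference of 2.64 (SE 0.08). The ephrin receptors Epha6 (2.15, SE 0.14), Epha3 (1.94, SE 0.12) and Ephb3 (1.83, SE 0.08, dim in DG) and the ligand Efnb2 (1.46, SE 0.07) were also higher in CA1. Beside Sema5a and Ntng1, DG had more of the semaphorin receptor Nrp2 (−1.17, SE 0.13) and of Sema6d (−1.09, SE 0.13).

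Of 56 cadherins and protocadherins, 9 were higher in CA1 and 11 in DG (35.7%, beside 23.0% of all genes, median −0.02). Cdh9, a cadherin of mossy fiber synapses, ran from 7.83 to 8.17 in DG (median 8.06) and from 4.71 to 5.71 in CA1 (median 5.03), a difference of −2.90 (SE 0.16). The protocadherin Pcdh8 (−2.20, SE 0.09) and the desmosomal cadherin Dsg2 (−2.16, SE 0.17, dim in CA1), a partner of desmoplakin in desmosomes, were also higher in DG. Cdh10 (1.87, SE 0.09) and Pcdh10 (1.12, SE 0.15) were higher in CA1. Of 67 matrix genes, 7 were higher in CA1 and 4 in DG (16.4%, beside 23.0% of all genes), led by the matrilin Matn2 (2.10, SE 0.12) in CA1 and the proteoglycan Spock3 (−1.41, SE 0.12) in DG. Without mouse4806, mouse4866 or mouse4883, 4 matrix genes were called higher in CA1.

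Of 84 genes of Wnt, BMP and TGF-beta signaling, 10 were higher in CA1 and 13 in DG (27.4%), close to the share of all genes, and without mouse4886 there were 8 in DG. CA1 had more of the secreted inhibitors Lefty1, Dkk3 and Grem1, a BMP antagonist (2.67, SE 0.25, dim in DG), and of the ligand Wnt2 (1.84, SE 0.08, dim). DG had more of the receptors Acvr1c (−1.72, SE 0.09, dim) and Tgfbr1 (−1.06, SE 0.10) and of the effector Smad3 (−1.38, SE 0.20, dim in CA1). Of 30 neurotrophin and growth factor genes, 6 were higher in CA1 and 7 in DG (43.3%, beside 23.0% of all genes). The IGF-binding proteins were opposed, with Igfbp4 higher in CA1 and Igfbp5 in DG (−2.73, SE 0.27), where the GDNF receptor Gfra1 (−2.12, SE 0.35) and the EGF receptor ligand Tgfa (−2.09, SE 0.14, dim in CA1) were higher too.

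Of 36 synaptic vesicle genes, 13 were higher in CA1 and 6 in DG (52.8%, beside 23.0% of all genes, median 0.11). The SNARE protein Snap25 was at 13.15 in CA1 and 13.14 in DG and was not called (adjusted p = 0.94). CA1 had more of the synaptotagmin Syt12 (1.48, SE 0.11, dim in DG), the GTPase Rab3c (1.37, SE 0.10) and the syntaxin Stx1a (1.24, SE 0.15, dim in DG). Synpr, the synaptoporin of mossy fiber terminals, ran from 10.78 to 11.17 in DG (median 10.89) and from 7.96 to 8.92 in CA1 (median 8.76), a difference of −2.27 (SE 0.16). The Rab3 effector Rph3a (−1.95, SE 0.32) and the complexin Cplx2 (−1.43, SE 0.09) were also higher in DG.

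Of 68 ribosomal protein genes measured, 39 (57.4%, beside 11.3% of all genes) were called higher in DG and 0 in CA1, with a median of −0.31. Without mouse4806, 25 were called higher in DG. None reached 2-fold, and the mean over the list was 9.72 to 9.97 in CA1 and 10.02 to 10.33 in DG. Rpl14 was at 6.79 in CA1 and 7.55 in DG (−0.76, SE 0.11) and Rplp0 at 8.80 and 9.30 (−0.50, SE 0.10). Centring the arrays on their medians left 31 calls. Of 77 genes of oxidative phosphorylation, 3 were higher in CA1 and 1 in DG (5.19%). Of 36 proteasome genes 1 was called (2.78%), and the share over all genes in either direction was 23.0%.

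The leading genes of CA1 differed in their CA3 level. These comparisons share arrays, so the values are given side by side. In 17 DN arrays with the mouse as a random block, 4191 probe sets (18.5%) were called between CA1 and CA3, 2030 (8.97%) higher in CA1 and 2161 (9.55%) in CA3, and 6499 (28.7%) between CA3 and DG. The level of Neurod6 was 10.85 in CA1, 11.07 in CA3 and 7.49 in DG, that of Dkk3 11.41, 11.42 and 8.35, and neither was called between the pyramidal layers. Wfs1 was at 12.20, 8.79 and 8.57, and Lefty1 at 6.37, 3.24 and 3.06, and neither was called between CA3 and DG.

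Htr5b (6.18, 3.11 and 3.11), Igfbp4 (11.27, 8.11 and 8.17) and Ccn3 (9.29, 4.23 and 4.10) followed the pattern of Wfs1, while Runx1t1 (8.13, 8.21 and 4.92) and Chrm3 (6.50, 6.25 and 3.39) followed that of Neurod6. Hunk (7.58, 5.99 and 4.46), Pde1a (10.28, 9.58 and 6.93) and Akr1c18 (6.16, 3.42 and 2.80) were graded, called both between CA1 and CA3 and between CA3 and DG. Kcnh7, Gca and Pou3f1 were lower in CA3 than in DG, with differences of −0.83, −0.89 and −2.48. Among genes higher in DG, Sema5a was at 10.08 in DG, 9.19 in CA3 and 6.84 in CA1, and Kctd4 at 9.22, 8.66 and 6.20. Both were called between CA1 and CA3 with adjusted p = 7.7e-07 and 1.2e-10. Npnt was at 5.56, 3.36 and 8.85, and Prox1 at 4.19, 3.07 and 7.98, so that CA1 lay between the other layers.

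The CA1 minus DG difference was set against that of the transgenic groups in a model of all 49 arrays. It differed between DN and tTA mice in 374 probe sets (1.65%), 239 (1.06%) more positive and 135 (0.597%) more negative in DN, and between DN and rTg4510 mice in 1290 (5.70%), 731 (3.23%) and 559 (2.47%). Both tests share the DN arrays. The DN mice carry the numbers from mouse4797 to mouse4886 and the others those from mouse4535 to mouse4666, and the part of a litter or batch in these differences was not tested. The first count was 240 without DN mouse4797 and 247 without DN mouse4886. The Actb ratio of CA1 and DG arrays ran from −0.59 to −0.06 in DN, from −0.92 to −0.47 in tTA and from −0.81 to −0.31 in rTg4510 mice, and its part in these differences was not tested.

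By its brightest probe set Cxcl12, whose other probe set was not called between the layers of DN mice, differed by −3.97 in DN, −0.85 in tTA and −0.34 in rTg4510 mice, a difference of −3.12 (SE 0.37, adjusted p = 1.3e-07) from tTA and −3.63 (SE 0.36, adjusted p = 1.3e-09) from rTg4510. Ogn differed by −3.33, −0.56 and −0.08 (−2.76, SE 0.29, from tTA; −3.24, SE 0.28, from rTg4510). Grem1 differed by 2.67, 0.06 and 0.18, and St3gal1, a sialyltransferase, by −2.85, −0.46 and −0.45. Trpc6 differed by −3.14, −1.14 and −0.41, and Igfbp5 by −2.73, −1.66 and 0.08, of which only the difference from rTg4510 was called.

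For some large differences no interaction was called, which does not show that they were alike. Dsp differed by −4.21 in DN, −4.78 in tTA and −5.86 in rTg4510 mice, and Prox1 by −3.78, −2.99 and −3.78, with neither interaction called. Lefty1 (3.31, 3.09 and 1.83) and Htr5b (3.08, 2.04 and 0.34) were called against rTg4510 and not against tTA mice. Ccn3 differed by 5.19, 3.03 and 2.46 and Wfs1 by 3.62, 2.52 and 1.83, both called against each group. Gfra2, a neurturin receptor that was not among the CA1 versus DG leaders, differed by −0.48 in DN, −2.83 in tTA and −2.45 in rTg4510 mice. The complement gene C4b differed by −0.37 in DN and −2.58 in tTA mice (difference 2.21, SE 0.48, adjusted p = 0.0061) and by 1.02 in rTg4510 mice, which was not called against DN (adjusted p = 0.073).

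**Figure D5:**
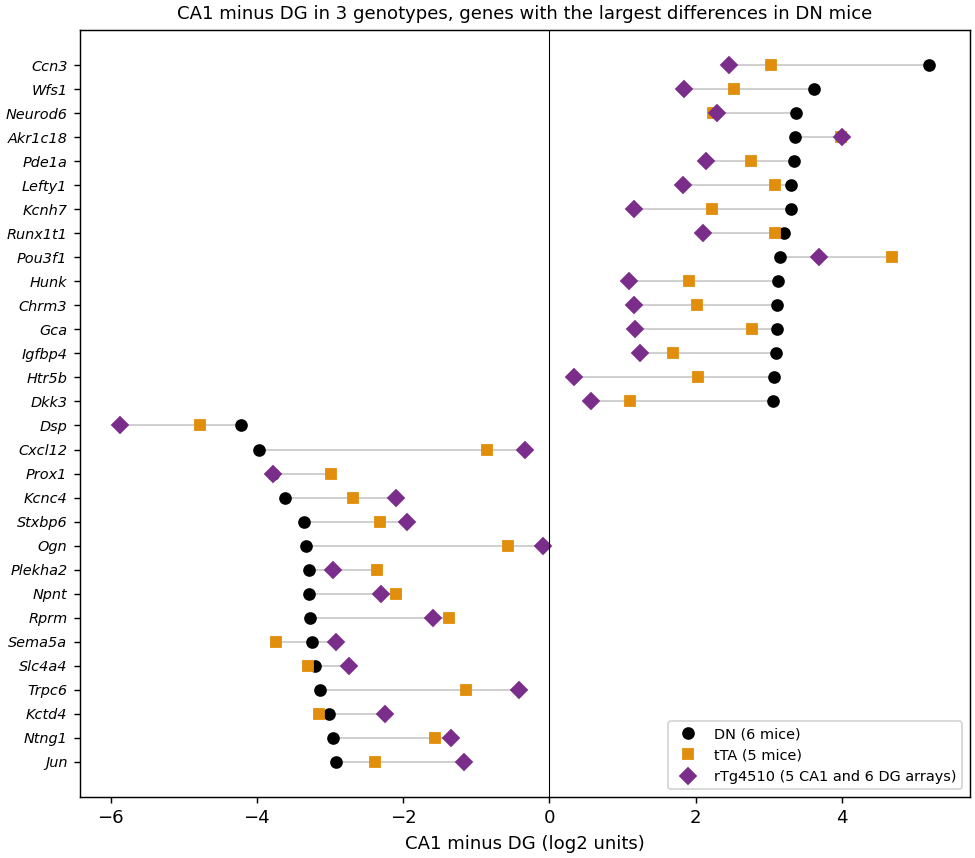
The CA1 minus DG difference in log2 units is shown for the 30 genes with the largest differences in DN mice, in DN (black circles), tTA (orange squares) and rTg4510 mice (purple diamonds), each as a difference of group means. Cxcl12 lies at −3.97 in DN, −0.85 in tTA and −0.34 in rTg4510 mice, while Dsp lies at −4.21, −4.78 and −5.86.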

How the data were processed

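The deposited table held log2 expression values for 49 arrays that the authors had made with RMA, per the labels. RMA sets all arrays on 1 distribution and so hides a shift of all transcripts together. Although the methods mention anti-log values, the numbers deposited span the range of log2 values. Of 22716 probe sets, 90 controls were left out and 22626 tested. Of these, 18003 had 1 gene symbol, 287 several and 4336 none listed. Detection calls were not used here. Precision is set by the number of arrays, which carry no depth. Hybridization batches are not given in the sources used here.

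Groups and mouse numbers came from the sample labels. In R version 4.3.3 with limma version 3.58.1, log2 values were fitted with layer and mouse as a block, and Benjamini-Hochberg adjustment ran over every probe set tested (called below 0.05). CA3 and genotype comparisons used group means with the mouse as a random block (consensus correlation 0.0537 over 17 and 0.117 over 49 arrays). The mouse number in the labels names the animal and was used to pair the layers. Deviations from the layer means correlated at a median of 0.0535 within mice (range −0.148 to 0.235, with 3 of 6 above 0.1) and −0.021 between mice. Of the 6 CA1 arrays, 2 correlated best with the DG array of their own mouse. Each gene is given by its brightest probe set. The fits were tested on simulated data with known changes.

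Genes were drawn by rule, and not all of those drawn are named in the text. The rule took the 15 largest differences in each direction with the same sign in all 6 mice. It added the 6 largest differences between genotypes in each test and all cell type markers. For each gene list it took up to 6 called members in each direction and 3 uncalled ones. The named genes are thus not a complete set. Members and lists were chosen with earlier results of these data known, and names that matched a list pattern by letters alone were removed after values were seen. Lists are described by counts and medians. Figures were drawn with matplotlib 3.10.9. Alternatives were the block, other arrays and normalizations, a filter on dim probe sets, array weights, the study's least significant difference test and leaving out each mouse.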

Additional observations from a re-analysis of the deposited data

Results flagged for a closer look

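In 16 of 342 groups of 6 arrays, looked at for 169 of the named genes and the RNA quality ratios, 1 mouse lay far from the other 5, where chance gives about 1 group in 20. Mouse4866 was the far one for 9 of the 16. In CA1 it was low for Stxbp6 (3.46) and Synpr (7.96) and high for Hunk (8.04). In DG it was low for Gabrd (7.47) and Nmb (4.35) and high for Pcdh8 (8.54), Plekha2 (8.62), Reln (7.41) and Sstr4 (5.68). Mouse4806 was high for Wfs1 (12.30) and Pde1b (6.77) in CA1 and for Scg5 (9.74) in DG. Mouse4883 was low for Gng3 in CA1 (10.52) and high for Sema3e in DG (6.82), mouse4797 was high for Npnt in DG (9.39), and mouse4886 was low for Camk2a in DG (11.04).

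The CA1 minus DG difference also differed between genotypes, by the limma test of that difference, for 35 of the same 169 genes against tTA mice and for 85 against rTg4510 mice. Over all probe sets the shares called were 1.65% and 5.70%. The 169 genes include ones picked for large differences in DN mice or between genotypes on the same arrays. Their counts therefore do not measure how often such genes differ. Values are given for 14 of the 35 and 24 of the 85, those among the leading genes of either layer, the layer markers and the leading genotype differences. This restriction was made after the values were seen. Against tTA mice, DN mice had a more positive difference in Grem1 (2.60), Gfra2 (2.35), C4b (2.21), Ccn3 (2.16), Dkk3 (1.96), Igfbp4 (1.40), Hunk (1.21), Neurod6 (1.13) and Wfs1 (1.10). They had a more negative one in Cxcl12 (−3.12), Ogn (−2.76), St3gal1 (−2.39), Trpc6 (−2.003) and Rprm (−1.90).

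Against rTg4510 mice the more positive differences in DN were those of Htr5b and Ccn3 (both 2.73), Dkk3 (2.50), Grem1 (2.49), Kcnh7 (2.14), Hunk (2.04), Gfra2 (1.97), Chrm3 (1.95), Gca (1.93), Igfbp4 (1.85), Wfs1 (1.79), Lefty1 (1.48), Pde1a (1.20), Runx1t1 (1.10) and Neurod6 (1.075). The more negative ones were those of Cxcl12 (−3.63), Ogn (−3.24), Igfbp5 (−2.81), Trpc6 (−2.73), St3gal1 (−2.40), Jun (−1.75), Rprm (−1.68), Kcnc4 (−1.51) and Stxbp6 (−1.41).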

How the results depend on the processing

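The count of 4938 probe sets called between CA1 and DG lay between 3956 and 5487 over the alternatives that kept all mice and set no minimum fold, and between 3948 and 4462 when 1 mouse was left out, with 0 calls in the opposite direction in each. Without the replicate block 4940 were called, 4507 of them shared, and the study's least significant difference test called 4902 on log2 and 4715 on anti-log values. A minimum of 2-fold left 825, of which 410 were higher in CA1 and 415 in DG. The difference between DN and tTA mice was called in 254 probe sets without the replicate block and in 500 with array weights, and from 240 to 388 when 1 mouse was left out. Its more positive part ran from 152 to 248 and its more negative part from 86 to 140 in these, with 81 more negative without dim probe sets. That between DN and rTg4510 mice ran from 914 to 1668. Of the called probe sets 1306 were dim, where differences tend to be understated. Of 156 called among the same 169 genes, 150 were called under every alternative and 0 changed direction. The call was lost for 6 under an alternative with all mice (Bok, C4b, Igf2, Pdzrn3, Pvalb and Sst) and for 3 without 1 mouse (C4b, Igf2 and Pdzrn3). Calls were gained under some setting by 6 genes: Chrm1 under 7 alternatives with all mice, Camk2a under 4, Gfra2 under 3, Rspo2 under 1, and Calb2 and Gfap without 1 mouse. Of the genes not called, 3 changed direction: Cx3cr1 (0.013 after quantile normalization, 0.0067 after centring, 0.0089 as a mean of probe sets, −0.133 to 0.251 without 1 mouse), Snap25 (−0.031 after quantile normalization, −0.011 to 0.027 without 1 mouse) and Slc32a1 (−0.053 to 0.138 without 1 mouse).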

Other observations

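Some genes of tissues beside the layers differed, for meninges and choroid plexus at a share close to that of all genes. Of 13 meningeal and fibroblast genes, 3 were called (23.1%, beside 23.0% of all genes). Ogn and Lum, another small leucine-rich proteoglycan (−1.69, SE 0.18, dim in both layers), were higher in DG. The growth factor gene Igf2 was higher in CA1 (1.14), a call that was lost without mouse4797, mouse4825, mouse4883 or mouse4886. The list mean was 4.01 to 4.49 in CA1 and 4.39 to 4.82 in DG. Of 5 choroid plexus and ependymal genes, 1 was called (20%). This was Kl, which encodes klotho, higher in CA1 (1.75, SE 0.18, dim in DG) by its brighter probe set and not called by the other (0.15). Ttr, the transthyretin gene that defines choroid plexus, was not called. Of 5 mossy cell and hilar genes, 2 (40%) were called higher in DG, Nmb and the receptor Calcrl (−0.57, and 0.02 by its other probe set, which was not called). The mossy cell marker Calb2 was not called (−0.33).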
